A study of Medicago sativa with 6 samples.

Results

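RNA from 6 tissues of alfalfa (Medicago sativa) was sequenced, and the genes described here are the short genes whose RNA was concentrated in the nodule library. A gene belonged to the set if its summed exon length was below 450 nt, if it had at least 10 counts per 1000000 counts (CPM) in nodules, and if that level was at least 10 times the highest level in the other 5 libraries. CPM were scaled with the trimmed mean of M-values and are written TMM CPM. Where a gene had no count in any of the other libraries, its nodule level was divided by the highest level that 3 counts give in any of them, 0.418 TMM CPM. The ratio is then a lower bound by this convention and not the end of an exact interval. The members were therefore chosen by their nodule level, their ratio and their length, and these values are given below as a description. In all, 148 of 164633 genes in the table met the rule.

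The compared groups were nodules on one side and roots, leaf, stem, seedpod and flower on the other. All came from plants of the genotype RegenSY27x kept at 22 °C in the day and 18 °C at night with 16 h of light. The labels name no other allele or treatment, although the title of the series names pho2 mutants, and they do not name the rhizobium in the nodules. From each tissue 3 replicates were harvested, their RNA was pooled, and the pool gave 1 library, so no difference between tissues has a replicate check and no p-value is given. The plants' age is 8 weeks in the growth protocol, while the stage field holds 20 and mixes weeks with days, and the flower sample is titled as flower bud. The libraries held 9883512 counts in nodules, 8568581 in roots, 8846524 in leaf, 8829264 in stem, 8735091 in seedpod and 9018902 in flower. Intervals are 95% exact intervals and cover counting error only.

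Nodules are root organs in which legumes house rhizobia that fix nitrogen, and the plant cells there supply the bacteria with carbon and receive ammonium. Legume nodules are known for leghaemoglobin, which binds oxygen, and for small secreted proteins. In Medicago truncatula, a close relative, these proteins include large families of short nodule-specific cysteine-rich peptides that act on the bacteria. Apart from 1 row that carries the name of PHO2, and is no member, the count table pairs no identifier with a gene name, and 0 of its 164633 identifiers matched a reference table of 63463 genes of another alfalfa assembly. Whether any member belongs to these families was therefore not tested, and no member is given a name or role. For the same reason the tissue labels could not be checked against marker genes. Genes are given by their position in the table, where chromosome 5.2 is read as haplotype 2 of chromosome 5, and for the genome build nothing was given in the sources used here.

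The 148 members carried 669456 nodule counts, which was 6.77% of the nodule library (interval 6.76% to 6.79%). The same genes took 0.0451% of the counts in roots, 0.0146% in leaf, 0.0154% in stem, 0.00912% in seedpod and 0.00879% in flower. In nodules the median member stood at 53.7 TMM CPM, against 0.318 in roots, 0.139 in leaf, 0.0960 in stem, 0.0557 in seedpod and 0 in flower. Many members were not counted at all outside nodules. No count at all was recorded for 44 members in roots, 63 in leaf, 68 in stem, 74 in seedpod and 80 in flower, and 21 members had none in any of these 5 libraries. Only 11 members reached 10 TMM CPM in any tissue other than nodules, and 92 stayed below 1 TMM CPM in all of them.

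**Figure D1:**
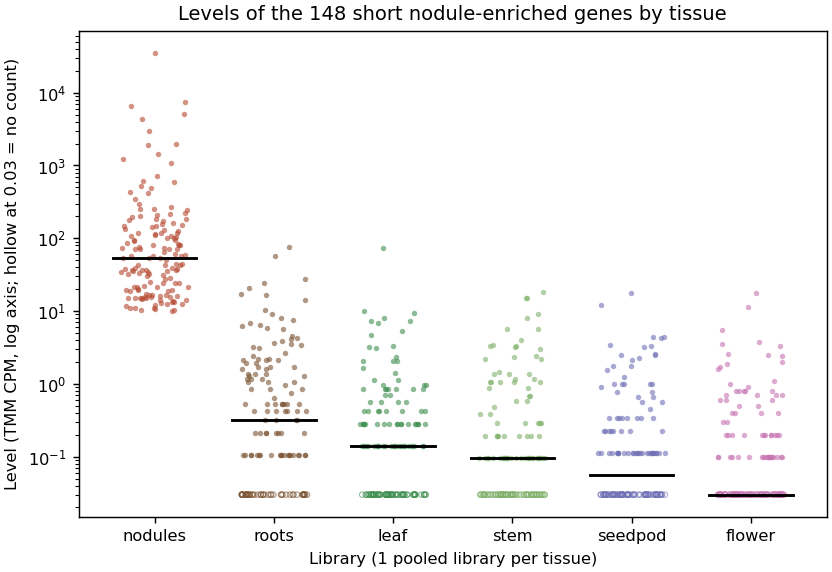
Level of each of the 148 short nodule-enriched genes (TMM CPM, log axis) in the 6 libraries, with 1 point per gene, hollow points for genes with no count, and a bar at the median. The median is 53.7 TMM CPM in nodules and 0.318 in roots, the next highest, and 80 of the points in flower are hollow.

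Short genes as a class met the nodule rule about as often as other genes. The 148 members were 0.511% of the 28987 genes below 450 nt, the 772 longer genes that met the same level and ratio limits were 0.569% of the 135646 genes at or above it, and the rule called 0.559% of all genes. Among genes that reached 10 TMM CPM in nodules, the ratio limit was met by 148 of 1500 short genes (9.87%) and by 772 of 14878 longer genes (5.19%). The same rule applied to the short genes for each other tissue called 62 for leaf (0.214%), 44 for seedpod (0.152%), 30 for roots (0.103%), 24 for flower (0.0828%) and 13 for stem (0.0448%). Nodules thus had the highest number of short enriched genes of the 6 libraries. For the other tissues the share called over all genes is not given here. Whether this order is particular to short genes was therefore not tested.

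The members had coding lengths of 165 to 447 nt with a median of 358.5 nt, and 42 were shorter than 300 nt. The 2286 other short genes that reached 10 TMM CPM in some library had a median of 351 nt, and the 772 longer nodule-enriched genes a median of 1092 nt. Before division by length, the median nodule level was 53.7 TMM CPM in the members and 43.8 in the longer nodule-enriched genes. Per kb of coding length, it was 159 TMM CPM per kb in the members (quartiles 64.8 and 462). In the longer nodule-enriched genes it was 40.9 (quartiles 18.7 and 124). The sets were split by length and share the level limit, so the difference per kb follows in part from the rule. No member overlapped another gene model of the table on either strand. Copies of a gene on the 4 haplotypes can share reads, and how the authors' counting treated such reads is not stated in the labels or the file.

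A few genes held most of the RNA. The most abundant member carried 42.5% of the members' nodule counts and the top 10 carried 82.8%, and without the most abundant member the share of the nodule library was 3.90% (interval 3.88% to 3.91%). By nodule level, 37 members lay between 10 and 20 TMM CPM, 59 between 20 and 100, 41 between 100 and 1000, and 11 at 1000 or more.

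The most abundant member was MS.gene010103 on the minus strand of chromosome 5.2 (56059595 to 56062028), with 4 exons and 444 nt. It had 34773 TMM CPM in nodules, against 56.9 in roots, 74.0 in leaf, 15.3 in stem, 17.7 in seedpod and 17.5 in flower. Its nodule level was 470.2 times that in leaf (interval 432 to 513). The raw counts were 531 in leaf and 536 in roots, so which of them is next depends on the scaling. This member was also the highest of all 148 in leaf, in seedpod and in flower. The next was MS.gene02500 on the minus strand of chromosome 3.2 (76076055 to 76076985), with 2 exons and 381 nt. It had 7362 TMM CPM in nodules, against 6.79 in roots, 7.38 in leaf, 3.36 in stem, 3.45 in seedpod and 3.48 in flower, and its ratio to leaf was 997 (interval 762 to 1332). Outside nodules its 5 levels lay close together, all between 3.36 and 7.38 TMM CPM. Here too, with 53 raw counts in leaf and 64 in roots, the order of leaf and roots depends on the scaling.

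A 2-exon gene of 393 nt on chromosome 2.3 (26797376 to 26797839) had 6669 TMM CPM in nodules, against 14.2 in roots, 9.89 in leaf, 5.66 in stem, 4.35 in seedpod and 3.77 in flower. Its ratio to roots was 469 (interval 396 to 560.03), and it lay 7754 bases from a longer nodule-enriched gene. Per kb of coding length these 3 genes stood at 78318, 19323 and 16970 TMM CPM per kb, so their order was the same as by count. A 3-exon gene of 255 nt on chromosome 3.4 (51434102 to 51434863) was the tenth in level. It had 1245 TMM CPM in nodules, against 0.530 in roots, 1.11 in leaf, 0.672 in stem, 0.891 in seedpod and 0.695 in flower, with a ratio to leaf of 1117 (interval 567 to 2588). It was among the 7 members with a ratio of 1000 or more.

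Of the other 6 members in the top 10, 5 had 4 exons and belonged to the same family of gene structures as MS.gene010103, described below, and 1 had 3 exons. The 3-exon gene had the lowest ratio of the top 10. It lay on chromosome 7.2 (81580381 to 81581157), had 261 nt, and stood at 1934 TMM CPM in nodules, against 75.1 in roots, 2.09 in leaf, 0.288 in stem, 1.23 in seedpod and 0.993 in flower. No other member was as high in roots, and its ratio to roots was 25.7 (interval 23.9 to 27.8).

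The ratio of nodules to the next highest library had a median of 99.1 over the members (quartiles 21.2 and 388). The 21 genes that had no count elsewhere were taken at their lower bound. Over the longer nodule-enriched genes the median was 33.4. For the 42 members below 300 nt it was 26.0, and for the 21 members with 4 exons, all of 1 family described below, 470. The higher median was thus not found in the shortest members. With the roots library left out of the comparison, the genes that then met the rule had a median of 58.8, and with leaf left out it was 72.8. The ratio was under 20 for 36 members and at least 100 for 74. The highest value, 2128, was that of a 5-exon gene on chromosome 3.2 (46571811 to 46572722), chosen after its values were seen, with 296 TMM CPM in nodules. It rested on 1 count in leaf and its interval was 382 to 84102, so its rank among the members is not determined by these libraries.

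**Figure D2:**
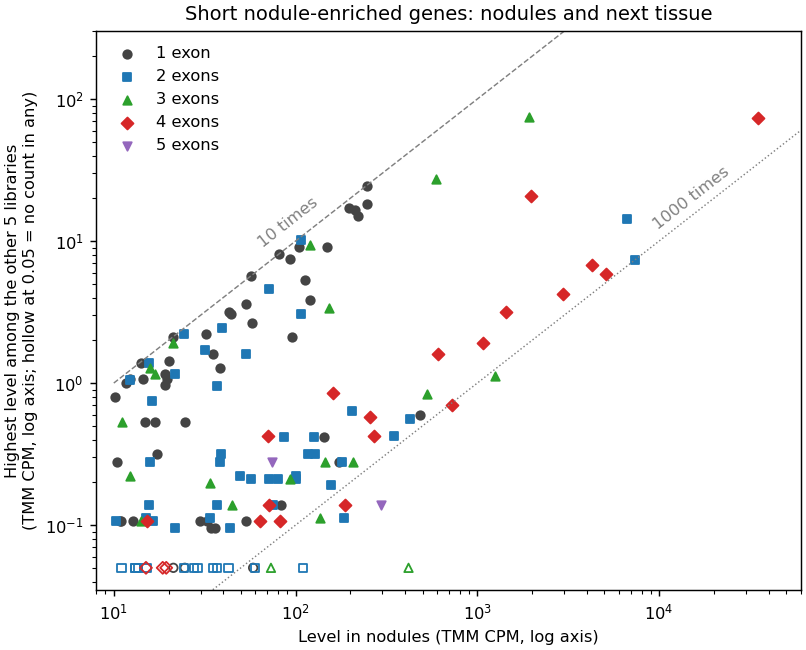
Nodule level of each short nodule-enriched gene against its highest level among the other 5 libraries (both TMM CPM, log axes), with the symbol giving the number of exons, hollow symbols for genes with no count elsewhere, a dashed line at the ratio of 10 that the rule sets and a dotted line at 1000. Single-exon genes lie closer to the dashed line, with a median ratio of 21.6, than 4-exon genes, with a median of 470.

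Roots were the next highest library for 72 members (48.6%), leaf for 29, stem for 13, seedpod for 9 and flower for 4. Among the longer nodule-enriched genes roots were next for 410 of 772 (53.1%). For 34 members the next highest library stood above the one that followed beyond counting error, and it was roots in 28 of them, stem in 4 and leaf in 2. The roots library was thus the most frequent second tissue in both length classes. Against library totals, the scaling raised leaf levels and lowered roots levels. Whether leaf or roots is next for a gene can therefore depend on the scaling, also where the difference exceeds counting error. With roots left out of the comparison, 247 short genes met the rule, against 148 with roots in it.

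Members deep enough to give a small share outside nodules showed how far this second tissue varied. Of the 42 members with at least 1000 nodule counts, 32 had at most 1% of their nodule count in every other library. Over all 42 the median share was 0.177% in roots, 0.100% in leaf, 0.0702% in stem, 0.0700% in seedpod and 0.0593% in flower. The highest share in roots was 11.4%. Over the 32 the median share was 0.125% in roots, 0.0830% in leaf, 0.0676% in stem, 0.0628% in seedpod and 0.0442% in flower. The 32 were picked by their low shares, so these medians follow in part from that limit. The other 10 all exceeded 1% in roots. What gave the low shares was not tested.

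Of the members with no count outside nodules, the highest was a 3-exon gene of 315 nt on chromosome 5.3 (51852310 to 51853936). It had 3421 counts or 418 TMM CPM in nodules, which is at least 1001-fold higher than in any other library. Its exons of 95, 112 and 108 nt have the lengths of the first 3 exons of the commonest chromosome 5 structure, described below. Whether it belongs to that family was not tested. A gene of 300 nt on chromosome 5.4 (22720154 to 22721120) was counted at 110 TMM CPM in nodules and was at least 263-fold higher there. Next came a gene on a scaffold, numbered 10608 (14358 to 15617), with 73.2 TMM CPM in nodules and a level at least 175-fold higher there. The 3 genes share that they were counted in nodules alone. Their bounds are those of the rule, which sets 3 counts elsewhere, and follow their nodule depth.

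In stem, the highest member was a single-exon gene of 288 nt on chromosome 4.1 (30583610 to 30583897). It had 249 TMM CPM in nodules, against 4.14 in roots, 0.418 in leaf, 18.1 in stem, 4.23 in seedpod and 11.5 in flower, and its ratio to stem was 13.7 (interval 11.8 to 16.0). Flower, too, stood above roots for this gene. Chosen after their values were seen, 2 further single-exon members of 288 nt lay on other haplotypes of chromosome 4. The gene on 4.4 (36506159 to 36506446) stood at 219 TMM CPM in nodules and 15.1 in stem, a ratio of 14.5 (interval 12.4 to 17.2). The gene on 4.2 (35327801 to 35328088) stood at 57.0 TMM CPM in nodules and 5.66 in stem, a ratio of 10.1 (interval 7.66 to 13.4). All 3 had stem as the next highest library. The intervals of their ratios overlapped, which does not show that the ratios were equal, and their difference was not tested.

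Members with different numbers of exons differed in these values, and copies of a gene among them are not independent. Of the members 50 had 1 exon (33.8%), 55 had 2 (37.2%), 20 had 3 (13.5%), 21 had 4 (14.2%) and 2 had 5 (1.35%). Exactly 2 exons were found in 25.6% of the other short genes and in 17.6% of the longer nodule-enriched genes. The share with 1 exon was close to that of the other short genes (35.04%) and above that of the longer nodule-enriched genes (21.4%).

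**Figure D3:**
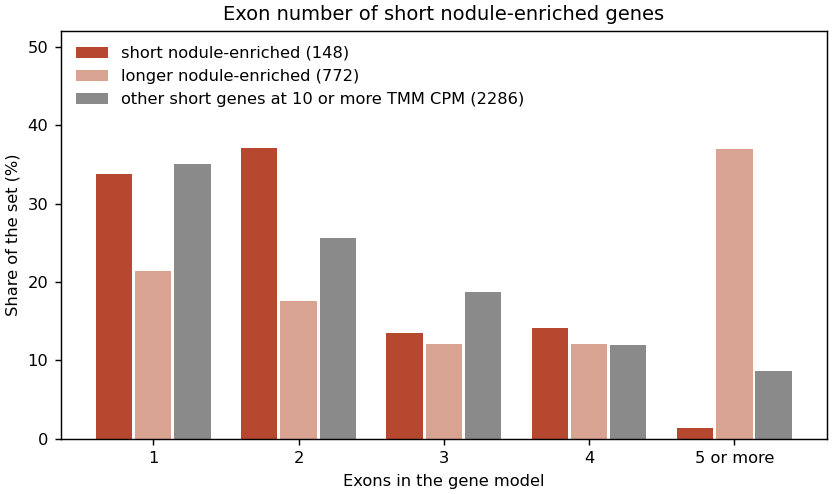
Share of genes (percent) with each number of exons in the short nodule-enriched genes (148), the longer nodule-enriched genes (772) and the other short genes at 10 or more TMM CPM in some library (2286). Gene models with 2 exons make up 37.2% of the short nodule-enriched genes, 17.6% of the longer ones and 25.6% of the other short genes.

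The median ratio to the next highest library, a value that the rule used, was 21.6 for members with 1 exon, 135 with 2, 152 with 3 and 470 with 4. The 21 members with 4 exons all belong to 1 family of structures, described below. The 470 is therefore the value of that family and not of exon number in general. The 2 members with 5 exons had ratios of 2128, the value above that rests on 1 count, and 268 (interval 73.8 to 2215). The median nodule level per kb was 115, 128, 295, 581 and 449 TMM CPM per kb for members with 1 to 5 exons. The 21 members with 4 exons carried 66.2% of the members' nodule counts and the 50 with 1 exon carried 4.52%. Ratios under 20 were found for 24 single-exon members, 8 with 2 exons, 4 with 3 and 0 with 4 or 5. Single-exon members thus made up most of the genes near the ratio limit. Among them roots were the next highest library for 30, stem for 8, leaf for 6, flower for 2 and seedpod for 1, and 3 had no count elsewhere.

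The 2-exon members had a short first exon and a short intron. Their first exon had a median of 94 nt, against 149 nt in the other short 2-exon genes, and the second exon a median of 212 nt, against 153 nt. The intron had a median of 118 nt, against 368 nt in the other short genes and 344.5 nt in the longer nodule-enriched genes with 2 exons. A first exon of 80 to 110 nt was found in 21 of 55 members with 2 exons (38.2%), in 86 of 585 other short genes (14.7%) and in 8 of 136 longer nodule-enriched genes (5.88%). Exon lengths were not part of the rule, and genes that are copies of each other are not independent in these counts.

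A first exon of exactly 94 nt was the most frequent among them, with 11 members, of which 6 lay on chromosome 2, 4 on chromosome 6 and 1 on chromosome 5. Their second exons ranged from 131 to 320 nt and their nodule levels from 21.8 to 428 TMM CPM. None had more than 5 counts in any other library, and their ratios were at least 208 with a median of 404. The table holds 51 short 2-exon genes with this first exon. Of the 40 that were not members, 18 had no count, 9 were highest in nodules, and 8 reached 10 TMM CPM somewhere with a nodule ratio of at most 1.71. Genes with this first exon were thus not all highest in nodules.

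Gene models were compared by their chain of exon lengths, and 2 or more genes on the same chromosome number with the same chain, over at least 2 exons, were taken as a same-structure group. Genes of such a group, or of a family of like structures, are called copies by their exon lengths alone. No sequence was compared. Such groups held 59 members (39.9%), against 38.7% of the other short genes and 42.5% of the longer nodule-enriched genes, so that sharing a structure was about as frequent in each set. There were 11 structures with at least 2 members, and together they held 40 members. Over all 30 groups that hold a member there were 113 genes, of which 54 were not members. In 33 of these 54 nodules were the highest library, 12 had no count, and 9 were highest in another tissue. These 54 genes were thinly counted, with a median of 5 nodule counts, and 52 were under 10 TMM CPM in nodules and 13 reached a ratio of 10. Of all short genes that were not members but had a count in some library, nodules were the highest library for 2177 of 10966 (19.9%). That share leaves out genes with no count, while the 54 include 12 with none. The 54 were also picked through groups that hold a member, so the 2 values are not a like comparison.

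**Figure D4:**
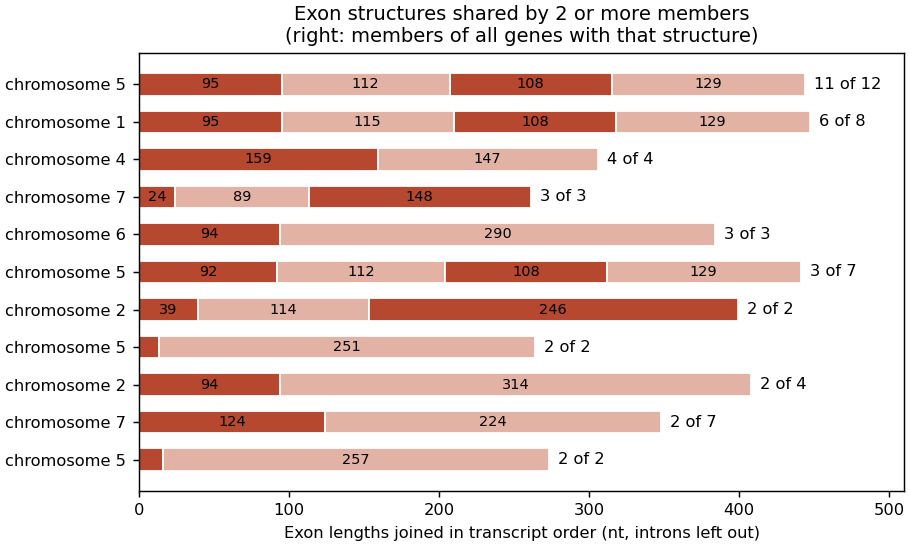
Exon lengths (nt, joined in transcript order without introns) of the 11 structures shared by at least 2 short nodule-enriched genes on 1 chromosome number, with the number of members of all genes of that structure at the right. All 4 genes of the chromosome 4 structure and 11 of 12 genes of the most widely shared chromosome 5 structure are members.

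The largest family of structures accounted for every 4-exon member. The 21 genes all ended in exons of 108 and 129 nt, began with an exon of 95 or 92 nt, and 14 lay on chromosome 5 and 7 on chromosome 1. None of the 2286 other short genes, all of which reached the level limit in some library, ended in these exon lengths. This does not show that the ending is particular to members, because thinly counted genes were left out of that set. Of all 28987 short genes, with any number of exons, 32 had this ending and 23 of these were members. The rest were below the level limit in every library. The structure of 95, 112, 108 and 129 nt on chromosome 5 was shared by 12 genes, of which 11 were members. That of 95, 115, 108 and 129 nt on chromosome 1 had 8 genes, of which 6 were members. Another, of 92, 112, 108 and 129 nt on chromosome 5, had 7 genes, of which 3 were members.

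The members of the family ranged from 15.04 to 34773 TMM CPM in nodules with a median of 256, and their median ratio to the next highest library was 470. Only 2 of the 21 reached 10 TMM CPM outside nodules. They carried 4.48% of all counts of the nodule library. On chromosome 5, after MS.gene010103, the highest were a gene on 5.2 (68740153 to 68741356) and a gene on 5.4 (63361169 to 63362373). The gene on 5.2 had 5114 TMM CPM in nodules, against 5.84 in roots, 4.74 in leaf, 2.98 in stem, 2.45 in seedpod and 2.48 in flower, a ratio to roots of 876 (interval 673 to 1164). The gene on 5.4 had 4285 TMM CPM in nodules, against 6.47 in roots, 6.82 in leaf, 2.40 in stem, 3.23 in seedpod and 1.89 in flower, a ratio to leaf of 628 (interval 475 to 849). Both have 444 nt, as MS.gene010103 does, and in both the roots and leaf levels stood close to each other. The gene on 5.4 had 49 raw counts in leaf and 61 in roots, so which of them is next depends on the scaling.

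On chromosome 1 the highest copy, of 447 nt, lay on 1.4 (36180219 to 36182268). It had 2960 TMM CPM in nodules, against 4.24 in roots, 2.37 in leaf, 1.34 in stem, 1.78 in seedpod and 0.695 in flower, with a ratio to roots of 697 (interval 512 to 977). The copy on 1.1 (66392951 to 66394615) had 1433 TMM CPM in nodules, against 3.18 in roots, 0.836 in leaf, 0.864 in stem, 1.003 in seedpod and 0.397 in flower, with a ratio of 450.2 (interval 315 to 668). The copy on 1.3 (63713011 to 63714584) differed from these in roots. It had 1961 TMM CPM in nodules, against 20.8 in roots, 2.09 in leaf, 1.06 in stem, 1.003 in seedpod and 0.596 in flower, and its ratio to roots of 94.3 (interval 81.9 to 109) lay below the intervals of the other two.

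The other members with the commonest chromosome 5 structure lay on all 4 haplotypes at lower levels. On 5.2 a copy (68280316 to 68282287) stood at 1080 TMM CPM in nodules and at 1.91 or less elsewhere. On 5.3 the copies that start at 65136917, 64927299 and 29161805 had 722, 272 and 71.9 TMM CPM in nodules, and on 5.4 the copy that starts at 63101363 had 609. On 5.1 the copies that start at 51229313, 51218115 and 62834775 had 82.0, 63.8 and 19.4 TMM CPM in nodules, and together these 3 copies had 2 counts in roots and none in the other 4 libraries. The copies on 5.1 were thus all below the median of the family.

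On chromosome 1 the remaining copies with 95, 115, 108 and 129 nt were also lower. On 1.1 the copy that starts at 34197829 had 160 TMM CPM in nodules, against 0.849 in roots, the next highest library, a ratio of 189 (interval 95.5 to 438). On 1.2 the copies that start at 32830409 and 68150116 had 70.5 and 15.3 TMM CPM in nodules, with 4 counts and 1 count in roots. Roots were the next highest library for all 3.

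Counting also the genes that missed the rule, the table held 30 gene models with 4 exons that end this way, 20 on chromosome 5 and 10 on chromosome 1, and 5 more genes with another number of exons that end in the same lengths. For the 21 members the rule sets nodules highest, and nodules were also the highest library for the 9 that were not members. Of the 5 others, 3 had 3 exons and were highest in nodules, and 2 of these were members. The remaining 2 had 13 exons, lay on 6.2 (6132789 to 6138863) and 6.3 (6466516 to 6472796), and were highest in flower, with 2.32 and 1.47 TMM CPM in nodules, against 100.3 and 24.4 in flower. The 30 models with 4 exons together had 444241 nodule counts, of which the most abundant copy took 64.0% (interval 63.9% to 64.2%). That share also depends on how reads shared by copies were assigned, which is not stated. The summed level of the 30 models was 54304 TMM CPM in nodules, against 104 in roots, 94.0 in leaf, 26.5 in stem, 29.4 in seedpod and 25.8 in flower. Of the 9 that were not members, 8 were below the level limit, at 0.733 to 9.29 TMM CPM in nodules, with 311 nodule counts and 3 counts in the other 5 libraries together. The remaining gene, on chromosome 5.1 (from 62580570), had 801 nodule counts and a length of 456 nt. The 4-exon copies left out by the rule were thus also counted almost solely in nodules.

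**Figure D5:**
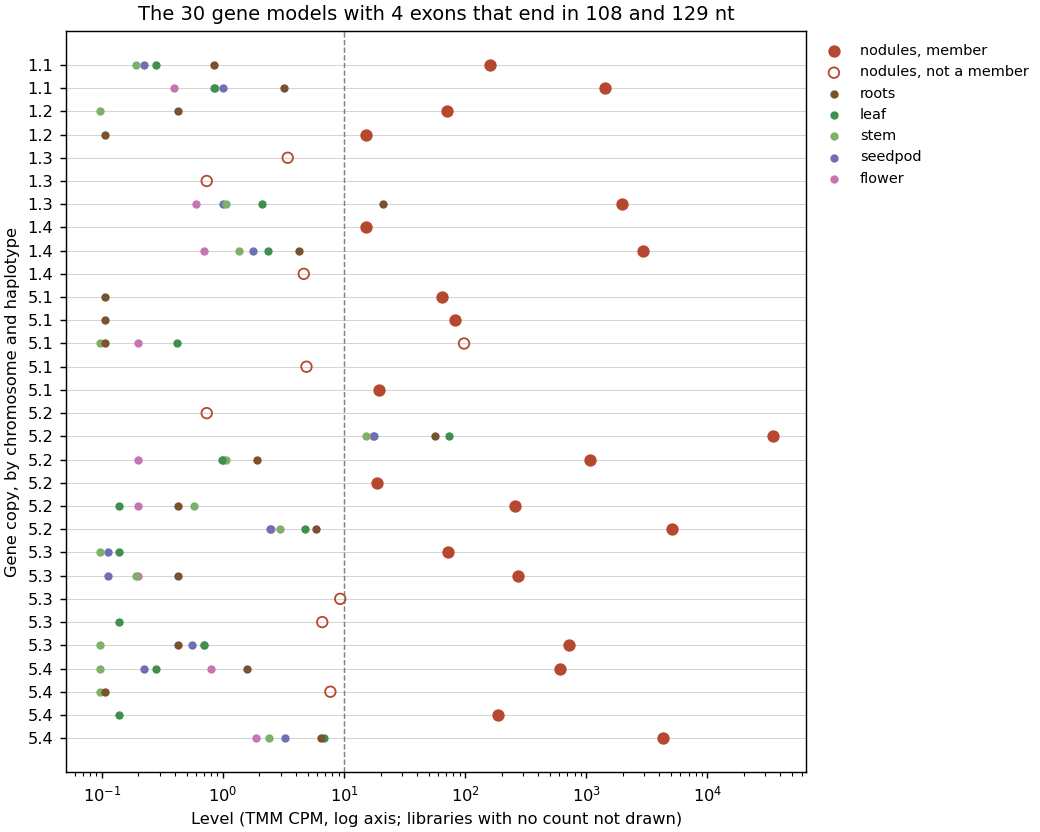
Level (TMM CPM, log axis) in each library of the 30 gene models with 4 exons that end in exons of 108 and 129 nt, 1 row per gene copy named by chromosome and haplotype, with large points for nodules (hollow where the gene is not a member) and small points for the other libraries. Nodules are the rightmost point in every row, and nodule levels run from 0.733 to 34773 TMM CPM between copies.

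The third largest structure, of 159 and 147 nt on chromosome 4, had 4 genes in the table, 1 on each haplotype, and all were members. The copy on 4.1 (19247946 to 19249422) had 101 TMM CPM in nodules from 825 counts, with a ratio to roots of 475 (interval 131 to 3931). The copy on 4.3 (19917358 to 19918648) had 79.7 TMM CPM, with a ratio of 376 (interval 104 to 3108). The copies on 4.4 (20466328 to 20467876) and 4.2 (18602735 to 18604282) had 27.6 and 13.2 TMM CPM in nodules and no count elsewhere, so that they were at least 66.1-fold and 31.6-fold higher in nodules. The counted nodule level thus differed between these genes on the 4 haplotypes, while all stayed near 0 in the other tissues. The split between copies depends on how shared reads were assigned, which is not stated.

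The structure of 24, 89 and 148 nt on chromosome 7 held the member with the highest level in roots. In its copies, chosen after their values were seen, roots were also the next highest library. Besides the gene on 7.2, with 1934 TMM CPM in nodules and 75.1 in roots, the copy on 7.4 (83577697 to 83578479) stood at 593 TMM CPM in nodules and 27.3 in roots. The copy on 7.1 (80233706 to 80234491) stood at 16.9 TMM CPM in nodules and 1.17 in roots. Their ratios of nodules to roots were 25.7 (interval 23.9 to 27.8), 21.8 (interval 19.2 to 24.8) and 14.5 (interval 7.83 to 29.6). The intervals of the 3 ratios overlapped, which does not show that the ratios were equal, and their difference was not tested.

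MS.gene02500 had a structure whose copies split by their intron, a comparison made after the values were seen. On chromosome 3 the table holds 9 genes with exons of 181 and 200 nt, of which it was the sole member. In 5 of them, MS.gene02500 included, the intron had 550 to 576 nt, and all 5 were highest in nodules, with 60323 counts in nodules, against 64 in roots, 53 in leaf, 35 in stem, 31 in seedpod and 35 in flower. All but 96 of these nodule counts were those of MS.gene02500. The other 4 had 51, 40, 4 and 1 nodule counts and no count outside nodules. In the remaining 4 genes the intron had 170 nt. Of these, 1 had no count in any library and 3 were highest in stem, roots or flower. Together they had 234 counts in nodules, against 775 in roots, 31 in leaf, 950 in stem, 226 in seedpod and 901 in flower. The gene highest in roots had 67 raw counts there, 68 in flower and 61 in stem, so which of these is highest is not determined. The split by intron thus rests on few copies with more than a handful of counts.

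The nearest copy with the shorter intron lay 11253 bases from MS.gene02500 on chromosome 3.2 (76088239 to 76088789). It had 14.9 TMM CPM in nodules, against 40.8 in roots, 3.06 in leaf, 51.7 in stem, 17.3 in seedpod and 44.0 in flower. A pair of neighbouring genes with the same exon lengths thus had different orders of tissues, with nodules far above the rest in one and stem, flower and roots highest in the other.

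The members were spread over all 8 chromosomes, with 13, 21, 22, 14, 31, 11, 21 and 13 on chromosomes 1 to 8 and 2 on scaffolds. Chromosome 5 held 31 (20.9%), against 116 of 772 longer nodule-enriched genes (15.03%) and 232 of 2286 other short genes (10.1%). Outside the 4-exon members, 17 of 127 (13.4%) lay on it. By haplotype, 42, 37, 29 and 38 members lay on haplotypes 1 to 4.

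Position was not part of the rule. Within 100000 bases of another member were 47 of the 148 (31.8%). Of the other short genes, 40 of 2286 (1.75%) lay that close to a member, and of the longer nodule-enriched genes 42 of 772 (5.44%). The first share is within a set and the others are between sets. How often genes of the other sets lay near genes of their own set was not computed, so these shares do not compare clustering. A longer nodule-enriched gene was within this distance for 32 members (21.6%), against 141 of the 2286 other short genes (6.17%). The members formed 22 runs of at least 2 neighbours, of which 19 were on 1 strand, and 3 runs held 3 members.

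The run with the highest summed level covered 27967 bases of the plus strand of chromosome 5.2 (68713390 to 68741356). Its 3 members start at 68713390, 68729389 and 68740153, had 18.6, 256 and 5114 TMM CPM in nodules, and all belong to the 4-exon family. A run on the plus strand of chromosome 2.1 (50900618 to 50992112) held members that start at 50900618, 50924620 and 50991596. They had 21.8, 428 and 126 TMM CPM in nodules, and each had a first exon of 94 nt. Another run, on the minus strand of chromosome 5.2 (71972028 to 72001865), held members that start at 71972028, 71981497 and 72001513, with 16.4, 205 and 57.0 TMM CPM in nodules. Neighbours that met the same rule thus differed widely in their nodule level.

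The limits of the rule cut through a continuous range of values. The longest members had 447 nt, among them the 4-exon genes on 1.4 and 1.3 given above. Just outside, at 450 nt, were genes on 3.3 (44785977 to 44787251) and 3.4 (51264419 to 51265696), with 104 and 23.0 TMM CPM in nodules. At the level limit, members on 7.1 (7933779 to 7934198) and 4.4 (81399072 to 81399485) had 10.1 and 10.3 TMM CPM, and genes on 4.4 (291581 to 292201) and 2.2 (7061150 to 7061678) missed it, each at 9.78.

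At the ratio limit, members on 2.1 (12812305 to 12812655) and 3.4 (10175631 to 10175864) had ratios of 10.02 and 10.05. Genes on 3.1 (64338967 to 64339176) and 2.4 (70088101 to 70088487) missed it at 9.997 and 9.94. A further 89 short genes met the ratio limit but stayed below 10 TMM CPM in nodules. Genes on either side of the level and ratio limits thus had nearly the same values.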

How the data were processed

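RNA-seq libraries of 6 tissues were used, 1 pooled library each. Per the file headers, the authors deposited raw counts per gene with exon positions, strand and the summed exon length, a quantity other than a count. The submitters' processing notes list edgeR, featureCounts, FastQC and Trimmomatic and give no version. The aligner, genome build, strand setting and handling of multiply matching reads were not given in the sources used here. Since 95.9% of the members had a length divisible by 3, the term coding length is used.

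Counts were scaled to TMM CPM with edgeR 4.0.16 in R 4.3.3 over all genes. This scaling moved levels, against library totals, by 0.27 (log2) in nodules, -0.14 in roots, 0.30 in leaf, -0.24 in stem, -0.04 in seedpod and -0.16 in flower. The rule and intervals were computed in Python 3.11.15 with scipy 1.17.1 and checked on simulated data. Levels have exact Poisson intervals, ratios exact conditional binomial intervals and shares Clopper-Pearson intervals. No molecular identifiers are mentioned, and reads may repeat molecules, so the intervals cover counting error only.

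The members, groups of structures and alternatives were chosen with earlier results of these data known. By rule, the text names the top 10 members in nodules, 2 genes on each side of each limit, the highest member in each other library, the top 3 without counts elsewhere, and the members of the 3 largest structures and runs. Alternatives were library totals, DESeq2 1.42.0 size factors, filtered TMM, other limits and leaving out roots or leaf.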

Additional observations from a re-analysis of the deposited data

How the results depend on the processing

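The number of members was 121 with library totals, 150 with DESeq2 size factors, 149 with TMM from genes with at least 10 counts, 112 at a ratio of 20, 111 at 20 TMM CPM, 119 with the lower interval end at 10 or more, and 161 without leaf. All 121 members under library totals, and 148 of the genes under each of the other scalings, were in the main set. Without the roots library it was 247, so that library, among those left out, decides how many genes belong. Below 300 nt it was 42, with a share of nodule counts of 0.533%, a median ratio of 26.0, roots next for 22, 4 within 100000 bases of another member and 10 in same-structure groups. The share of nodule counts was 6.64% with library totals, 6.57% at a ratio of 20, 6.73% at 20 TMM CPM, 6.97% without leaf, 7.23% without roots and 6.66% with the lower interval end. It was 3.90% without the most abundant member, an alternative chosen after seeing the data. The median ratio was 216 at a ratio of 20, 223 at 20 TMM CPM and 171 with the lower interval end, all limits that remove genes of low ratio or depth, and lower, at 58.8 without roots and 72.8 without leaf. Roots were next for 47 at a ratio of 20, 31 members had a neighbour at 20 TMM CPM, and 28 were in same-structure groups of at least 3 exons. Which library is next without roots has no value for roots. No paired analysis was possible because each tissue had 1 library and the labels give no shared replicate numbers. Depth limits the members with few counts outside nodules, whose ratios have wide intervals.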

Other observations

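Counts outside nodules varied between members of similar nodule depth, a comparison chosen after the values were seen. Of the 13 members with 2000 to 6000 nodule counts, the 3-exon gene on chromosome 5.3 (51852310 to 51853936), with 3421, had 0 counts in the other 5 libraries together. The other 12 had 2 to 385, which is 0.0825% to 18.9% of their nodule counts. A gene on chromosome 2.1 that starts at 50924620, with 3499 nodule counts, had 15 elsewhere (0.429%). What sets these counts was not tested.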
